A study of Pilatotrama ljubarskyi with 14 samples.

Results

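Of the 878 genes in the deposited table of Trametes ljubarskyi, 33 (3.76%) had their highest level on wheat straw by a set margin and met the further conditions below. They were chosen on the deposited levels: the wheat straw level had to be at least 4 and at least 0.4 above the highest of the levels on aspen, pine, cellulose and maltose, both on the log2(normalized reads + 1) scale. In addition, the lowest of the wheat straw, aspen and pine levels had to be less than 1 above the cellulose level. This last condition set aside 5 genes that met the others, and the floor on the wheat straw level set aside 1. In the whole table, 125 genes (14.2%) were highest on wheat straw by any margin, against 124 on aspen, 210 on pine, 177 on cellulose and 242 on maltose.

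The cultures were mycelium of strain BRFM1659, shaken for 3 days at 30 °C. The wheat straw medium held 15 g/l of ground straw (fragments under 2 mm) and 2.5 g/l of maltose, with 3 libraries. The aspen medium held 15 g/l of wood milled to 1 mm and an amount of maltose that could not be read in the labels (3 libraries), the pine medium 15 g/l of wood fragments under 2 mm and 2.5 g/l of maltose (2 libraries), and the cellulose medium 15 g/l of Avicel, a microcrystalline cellulose, and 2.5 g/l of maltose (3 libraries). The maltose medium had no solid substrate and 20 g/l of maltose (3 libraries). Every medium also held ammonium tartrate, salts, thiamin and yeast extract. The labels do not say whether libraries of 1 substrate came from separate cultures, so p-values measure only the spread between these libraries, which may be technical. Soluble sugar and solid substrate cannot be told apart in any comparison with maltose, and the same holds for a difference in soluble sugar in comparisons with aspen. Fragment size and kind of material cannot be told apart where aspen is set against pine or wheat straw.

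White-rot fungi of the order Polyporales secrete enzymes that open and digest all the main polymers of plant cell walls. The solid substrates differ in those polymers. Wheat straw, a grass material, holds arabinoxylan that carries ferulic acid, and its lignin differs from that of wood. Aspen, a hardwood, is rich in acetylated glucuronoxylan, pine, a softwood, in galactoglucomannan, and Avicel is nearly pure cellulose. The deposited table pairs its gene numbers with no names or products, so the 33 genes are given by number and their functions are not known here.

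The deposited table holds 1 mean level per substrate. The whole reads of single libraries were worked back from the digits of these means for 3953 of the 4390 values (90.0%), and for 153 of the 165 values of the 33 genes. Reads were recovered in all 14 libraries for 24 of the 33 genes. The other 9 lay above a level of 13 on wheat straw, where no search was made, and for them the wheat straw level is known only as a mean. Libraries are called A, B and C within a substrate, from the deepest to the shallowest. How these letters match the replicate numbers in the labels is not known. Relative depth ran from 0.646 to 1.30 over the libraries (1.10, 1.05 and 0.761 for wheat straw A, B and C), and the recovered genes held 705007 to 2881179 reads per library. Across the 670 tested genes recovered everywhere, Pearson's r between wheat straw libraries was 0.985 to 0.993, a correlation across genes, which are not independent replicates.

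**Figure D1:**
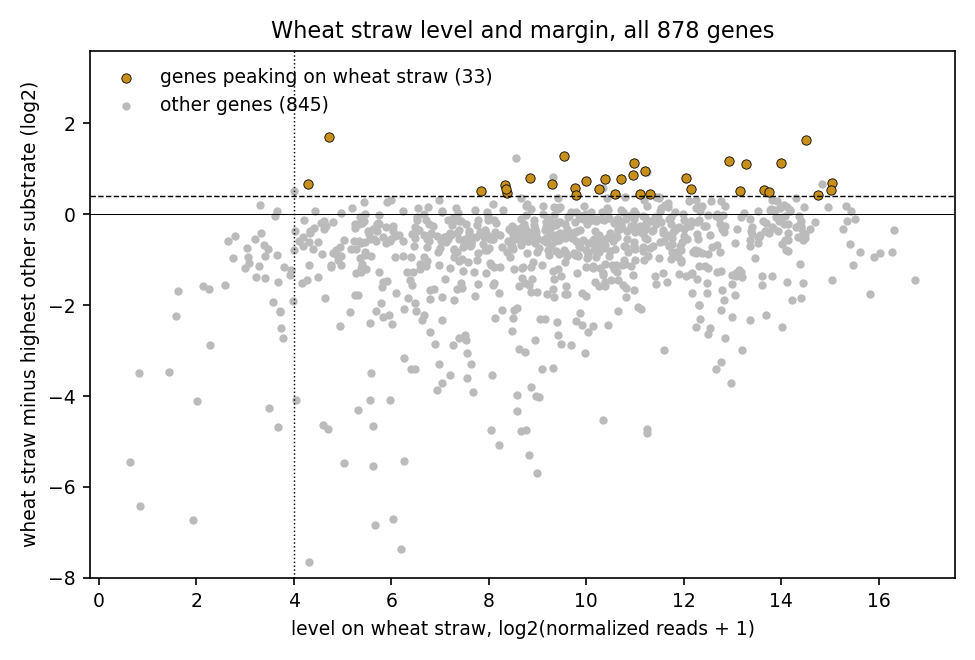
Level on wheat straw (x axis) and wheat straw minus the highest other substrate (y axis, log2) for all 878 genes, from the deposited means. The dashed line marks the margin of 0.4 and the dotted line the level of 4. The 33 genes lie above both lines, and the 6 other points in that corner or beside it were set aside by the condition on cellulose or by the level.

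The genes covered most of the range of levels in the table. Their wheat straw level ran from 4.28 to 15.04, with a median of 10.95, where the median over all 878 genes was 9.36. On aspen, pine and cellulose their medians were 9.64, 9.64 and 9.86, closer to the medians of all genes there (9.15, 9.31 and 9.35). On maltose their median of 8.46 lay below the 8.87 of all genes. Summed over the deposited means turned back to normalized reads, the 33 genes made up 6.73% of the table on wheat straw, 2.60% on aspen, 3.86% on pine, 1.99% on cellulose and 1.42% on maltose. The 5 genes highest on wheat straw held 61.3% of the wheat straw sum. These shares describe genes that were chosen for being high on straw, and in bulk extracts fewer hyphae with a transcript and less transcript per hypha cannot be told apart.

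The margin over the next highest substrate was 0.66 at the median, with quartiles of 0.52 and 0.86, and 1.70 at the most. On the scale with 1 added to the reads this corresponds to 1.58-fold at the median and 1.33-fold to 3.24-fold over the range. Only 7 of the 33 genes were at least 1 above every other substrate. Just inside the threshold lay margins of 0.42, 0.42 and 0.45, and just outside it 0.38, 0.38 and 0.38. On the limit against cellulose, the nearest genes inside had a lowest plant material 0.79, 0.68 and 0.67 above cellulose, and of those outside the nearest had 1.30. The lowest wheat straw levels inside were 4.28, 4.72 and 7.84, and the gene just outside had 3.99.

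The substrates below wheat straw differed from gene to gene. Pine was next highest for 15 genes, cellulose for 11, aspen for 4 and maltose for 3. Maltose was the lowest substrate for 25 genes, cellulose for 4, aspen for 3 and pine for 1. In all, 14 different orders of the substrates occurred. The most frequent, with 9 genes, ran from wheat straw over pine, cellulose and aspen down to maltose. Against cellulose, aspen was lower for 22 genes and pine for 13. Both woods were below cellulose for 12 genes and both above it for 10.

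**Figure D2:**
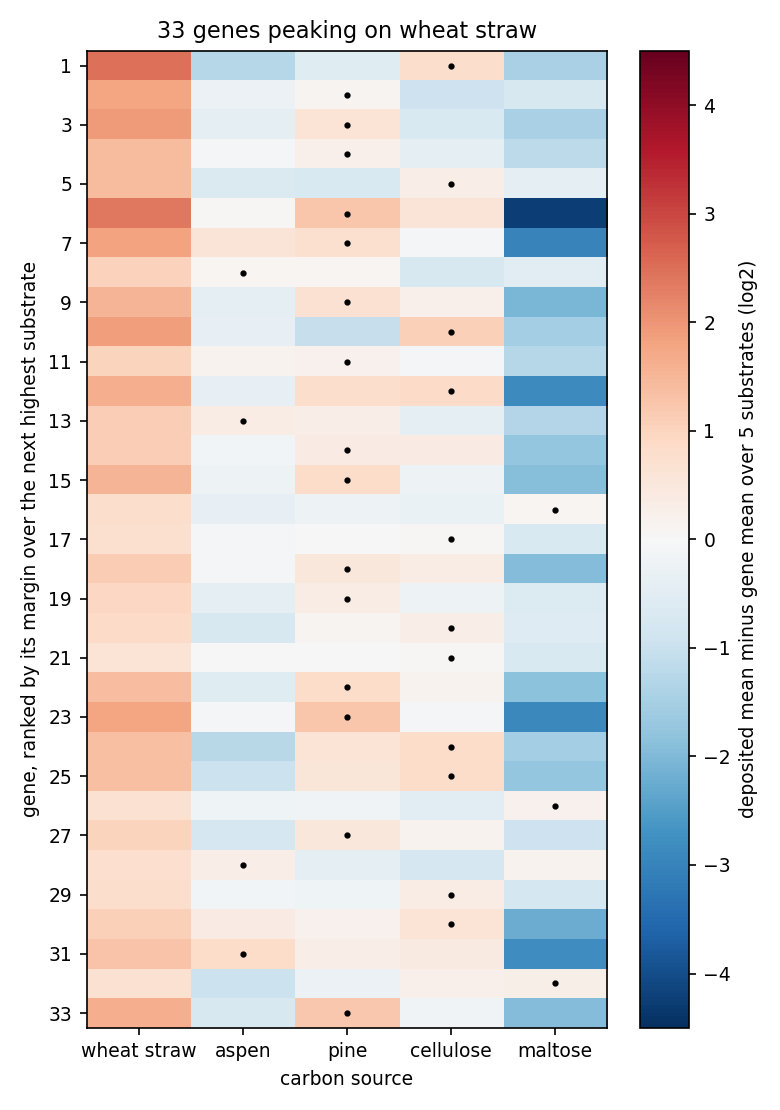
Deposited mean of each of the 33 genes on each carbon source, minus the gene's own mean over the 5 sources (log2, colour). Genes run from the largest margin (rank 1) to the smallest (rank 33), and black dots mark the next highest source, which is pine in 15 rows, cellulose in 11, aspen in 4 and maltose in 3.

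Seen substrate by substrate, the wheat straw level stood 1.61 above aspen at the median of the 33 genes, 0.85 above pine, 1.13 above cellulose and 2.84 above maltose. Over all 878 genes the same medians were 0.18, -0.04, -0.02 and 0.15. The step was at least 1 for 23 genes against aspen, 10 against pine, 19 against cellulose and 29 against maltose. These differences chose the genes and were not tested.

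**Figure D3:**
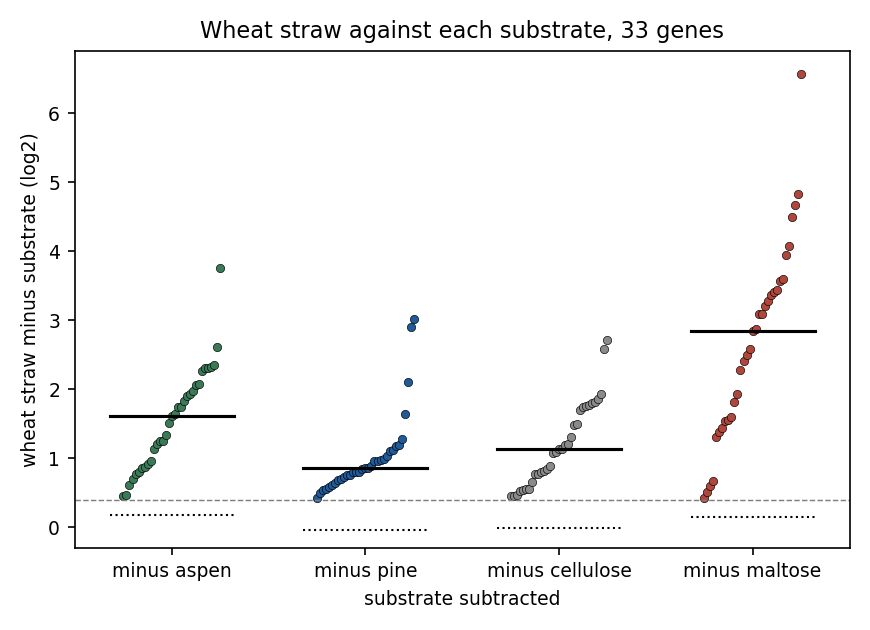
Wheat straw minus each other substrate (log2) for the 33 genes, sorted within a substrate, from the deposited means. Solid bars are the medians of the 33 genes (1.61, 0.85, 1.13 and 2.84), dotted bars the medians of all 878 genes, and the dashed line is the margin of 0.4.

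The recovered libraries show how far the means stand clear of the spread between libraries. The choice of the genes used the means, though not the spread. All 3 wheat straw libraries were above every library of the next highest substrate in 22 of the 24 genes with reads. The same held for 5.56% of the 684 tested genes with reads on both, a share that includes the genes chosen here and from which nothing can be read, since means chose them. Against single substrates the wheat straw libraries stood clear in 24 of 24 genes for aspen (41% of all tested genes with reads), 23 for pine (30.3%), 22 for cellulose (24.7%) and 23 for maltose (40.8%). In 21 of the 24 genes they were above all 11 other libraries (5.37%). The 3 exceptions were genes 964651, 982130 and 962318. The means that chose the genes enter all of these counts. Nothing can therefore be read from the counts against the shares of all tested genes.

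The SD between wheat straw libraries was 0.15 at the median of these 24 genes, between 0.02 and 1.91, and 0.13 over 752 tested genes. The spread of the 33 genes was wider on cellulose, with a median SD of 0.32 over 31 genes (0.23 over 729 tested genes), and on maltose, with 0.29 over 33 genes (0.25 over 777). On aspen it was 0.19 over 32 genes (0.13 over 774), and on pine 0.14 over 33 genes (0.12 over 866).

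Among the 15 genes next highest on pine, the margin was 0.73 at the median and the wheat straw level 12.92. Gene 749348 had the largest margin of this class, with deposited levels of 14.50 on wheat straw, 12.44 on aspen, 12.85 on pine and 11.79 on cellulose. Its normalized reads were 4365, 7244 and 5421 in the aspen libraries, 6854 and 7994 in the pine libraries, 3768, 3118 and 3745 in the cellulose libraries, and 3388, 5086 and 3983 in the maltose libraries. Pine stood clear of cellulose, and wheat straw stood 1.65 ± 0.22 (SE) above pine and 2.71 ± 0.20 above cellulose, the largest step over cellulose of the 33 genes. The wheat straw libraries of this gene were not recovered, so the SE takes its spread from the other substrates.

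Gene 966145 had 756, 742 and 733 normalized reads in the wheat straw libraries. It had 128, 195 and 132 on aspen, 327 and 285 on pine, 119.6, 65.1 and 240.0 on cellulose, and 69.4, 77.6 and 66.2 on maltose. The wheat straw libraries were nearly equal, with an SD of 0.02 that was the smallest of the 24 genes, and no other library came near them. The difference was 1.28 ± 0.38 (SE) from pine and 2.58 ± 0.34 from cellulose, where the 3 libraries were far apart. Both SEs rest on a common spread over all substrates, so the cellulose libraries enter the SE against pine too.

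Genes 1056495 and 1061521 had the largest steps over maltose. Gene 1056495 had a deposited wheat straw level 6.58 ± 0.22 (SE) above that on maltose (7.42). It had 3016, 3913 and 2980 normalized reads in the aspen libraries, 7192 and 7838 on pine, 5354, 6151 and 3273 on cellulose, and 194, 146 and 173 on maltose. All libraries of the other solid substrates were thus over those of maltose by a wide gap, and the added step to wheat straw was 1.12 ± 0.24 above pine. Gene 1061521 had a level of 13.28 on wheat straw, against 12.03 on aspen, 12.17 on pine, 11.36 on cellulose and 8.46 on maltose, 4.83 ± 0.22 above maltose.

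The highest wheat straw levels belonged to genes 623967 and 940534, with 15.04 and 15.02. Gene 623967 had levels of 13.30 on aspen, 14.35 on pine, 13.31 on cellulose and 11.61 on maltose. Its own spread rests on 3 degrees of freedom, since reads were recovered on pine and maltose only. Its SEs also draw on the spread of the other tested genes. At the small end of this class, gene 1070000 was 0.42 ± 0.23 and gene 954831 0.50 ± 0.21 (SE) above pine, the smallest steps over that substrate.

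The 11 genes next highest on cellulose had a median margin of 0.56. The largest margin of all 33 genes, 1.70, belonged to gene 964651, and it rests on few reads. Its libraries held 54, 5 and 48 reads on wheat straw. They held 0, 3 and 1 reads on aspen, 3 and 1 on pine, 19, 3 and 8 on cellulose, and 0, 4 and 0 on maltose. Wheat straw library B overlapped the cellulose libraries, and the SD on wheat straw was 1.91, the largest of the 24 genes. Without library C the margin was 1.06, and without library B it was 2.80.

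Gene 562841 had 2009, 2235 and 1865 normalized reads in the wheat straw libraries. The other libraries held 447, 542 and 455 on aspen, 509 and 438 on pine, 935, 911 and 937 on cellulose, and 386, 1196 and 417 on maltose. Cellulose stood clear of both woods, wheat straw was 1.13 ± 0.31 (SE) above cellulose, and maltose library B was the only maltose library above the cellulose ones. Gene 968424 was also clear on cellulose against both woods, at a higher level. It had 4129, 4664 and 3871 normalized reads on wheat straw, 698, 1207 and 807 on aspen, 573 and 549 on pine, 2168, 2690 and 2370.3 on cellulose, and 247, 1064 and 235 on maltose. Its step over pine, 2.90 ± 0.48 (SE), was second to the 3.02 ± 1.04 of gene 964651 among the 33 genes.

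Gene 940534, also next highest on cellulose (14.48), was lowest on maltose (12.14) and had the second largest step over aspen, 2.61 ± 0.16 (SE). The smallest steps over cellulose, 0.45 ± 0.20 and 0.45 ± 0.13, were those of genes 1033360 and 1032149. Gene 1033360 had 2543, 2374 and 2712 normalized reads on wheat straw against 2026, 2241 and 1421 on cellulose, so that the groups did not overlap but came close. Gene 982130 was the lowest of all on wheat straw, with 23, 16 and 15 reads. It had 11, 10 and 14 reads on aspen, 15 and 5 on pine, 9, 17 and 13 on cellulose, and 4, 8 and 8 on maltose. Scaled for depth, pine library A lay within the wheat straw libraries.

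Aspen was the next highest substrate for 4 genes. Gene 972775 had 2320.3, 2447 and 2328 normalized reads on wheat straw. It had 1337, 1168 and 1160.4 on aspen, 1231 and 1190.2 on pine, 714, 779 and 611 on cellulose, and 779, 837 and 799.8 on maltose. The libraries of both woods overlapped, those of cellulose and maltose all lay below them, and wheat straw stood 0.95 ± 0.11 (SE) above aspen. Gene 1056022 also had overlapping libraries on both woods, with 847, 696 and 825 normalized reads on aspen and 792 and 751 on pine, against 1330.4, 1486 and 1228 on wheat straw. The 2 smallest steps over aspen were 0.45 ± 0.17 for gene 132820 and 0.47 ± 0.23 for gene 1050874.

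Maltose was the next highest substrate for 3 genes. Gene 969827 had 573, 839 and 521 normalized reads on wheat straw, 268, 307 and 286 on aspen, 265 and 361 on pine, 278, 288 and 337 on cellulose, and 407, 366 and 411 on maltose. Its difference from maltose was 0.68 ± 0.18 (SE). Gene 962318 had 794, 1035 and 849 normalized reads on wheat straw and 559.6, 884 and 589 on maltose, with maltose library B inside the range of the wheat straw libraries. Cellulose library C, with 846 normalized reads, lay inside that range as well. The difference of this gene from maltose was 0.42 ± 0.22. Gene 939363, at a wheat straw level of 13.15, was 0.50 ± 0.23 above maltose.

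**Figure D4:**
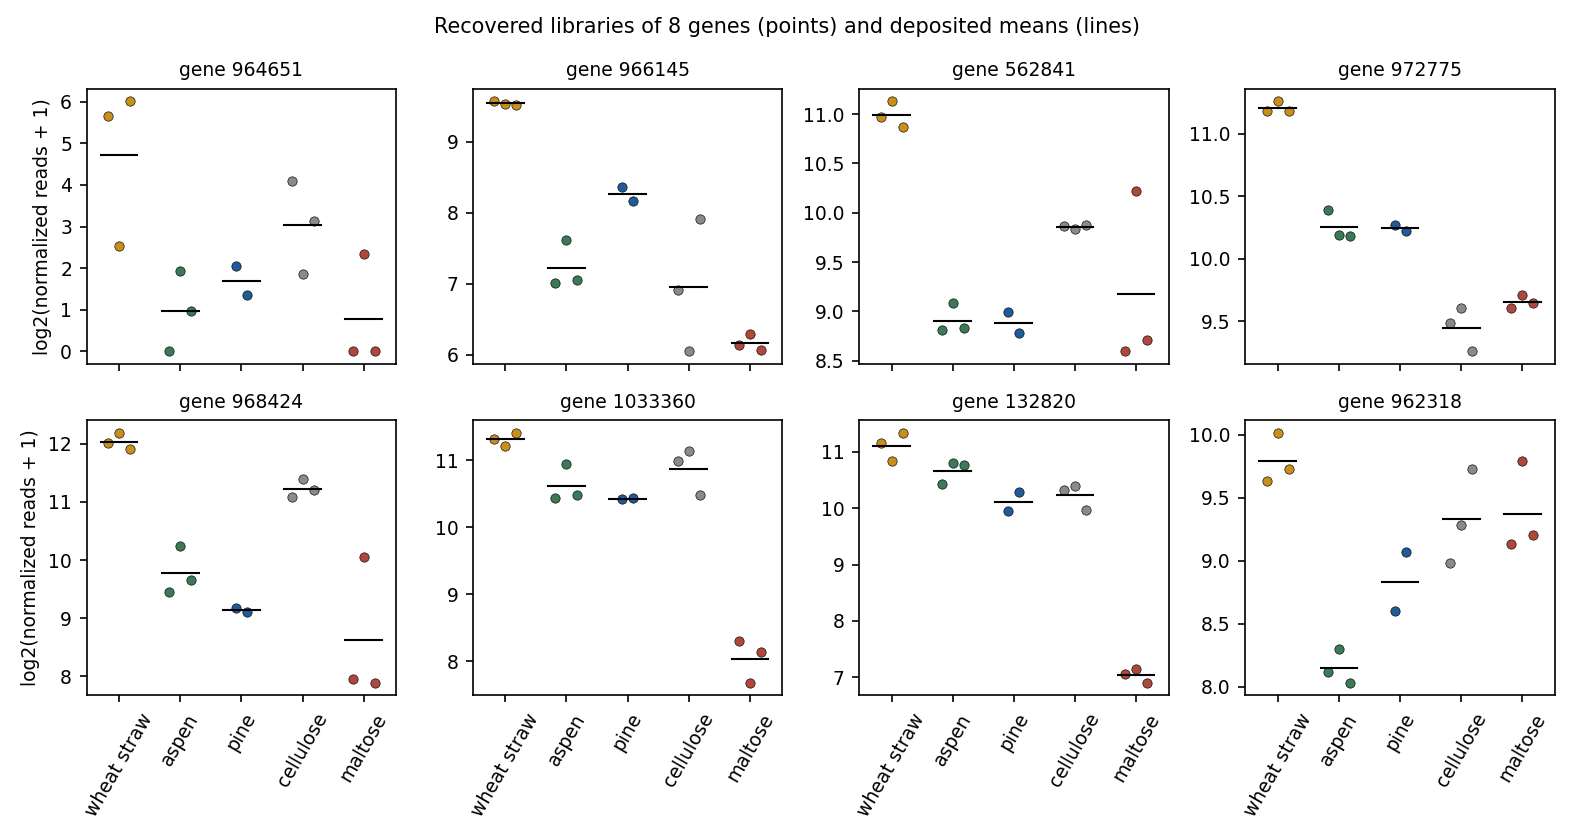
Level in each recovered library (points, log2(normalized reads + 1), libraries A to C from left to right) and deposited mean (lines) of 8 genes on each carbon source, the 5 largest and 3 smallest margins among genes given by number with reads in all libraries. Wheat straw libraries lie above all others in 6 of the panels, and overlap another substrate in genes 964651 and 962318.

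Whether single libraries set the list was examined by leaving out each of the 14 in turn and choosing the genes again. The number chosen then lay between 31 and 38, and 23 of the 33 genes were chosen in every one of the 14 settings. A gene kept its deposited mean where its reads were not recovered, so that for 9 genes the wheat straw level could not change. All of these 9 except genes 939363 and 1070000 were among the 23. Gene 940534 had no recovered reads on cellulose either, and its margin was 0.54 in every setting, so its place was not examined. Gene 962318 was lost most often, in 4 settings. The lowest margins were 0.22 for gene 982130 without pine library B and 0.25 for gene 1033360 without cellulose library C.

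Some libraries stood apart within their substrate, for these genes or for the tested genes as a whole. Aspen library B was the highest aspen library in 20 of 32 genes, and in 37.1% of tested genes. Cellulose library C was the lowest in 15 of 31 genes and at least 0.5 below both others in 7, against 56.4% and 117 of the 729 tested genes. Maltose library B was at least 1 above both other maltose libraries in 4 of 33 genes, against 5.53% of the tested genes. It was the highest in 17 of the 33 and the lowest in 15, against 35.1% and 53.2% of the tested genes. It was at least 0.5 below both others in 2 of the 33, against 17.4%. The part of these libraries in the margins was examined only by leaving each out.

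Comparisons that leave out wheat straw were open to a test, and they ask how the 33 genes behaved on the other sources. The choice of genes keeps each of those levels at least 0.4 below wheat straw. It also keeps at least 1 wood less than 1 above cellulose. It does not fix the sign between aspen and pine or between cellulose and maltose. It can still shift how many genes rise or fall. Genes highest on maltose (242 of the 878 genes) or cellulose (177) could not enter, nor those highest on pine (210) or aspen (124). The limit against cellulose set aside 5 genes with both woods at least 1 above cellulose. Shares of all tested genes are therefore no neutral background for the 33 genes, and the part of the choice in the counts was not tested. Differences were tested with limma's moderated test over 867 genes, and a gene was called at a Benjamini-Hochberg adjusted p under 0.05 and a log2 difference of at least 1 in size. All 33 genes were among the tested ones, 2 of them (964651 and 982130) only through their wheat straw libraries.

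On cellulose against maltose, 19 of the 33 genes rose and none fell. Over all tested genes, 26% rose and 16.7% fell. The difference was 1.18 at the median of the 33 genes and between -0.90 and 4.80, and 0.09 at the median of all tested genes. Gene 1056495 rose the most, with 5354, 6151 and 3273 normalized reads on cellulose against 194, 146 and 173 on maltose, 4.80 ± 0.22 (SE) higher on the log2 scale, at an adjusted p of 2.05e-09 by limma. Gene 970724 had 968, 1087 and 889.7 normalized reads on cellulose against 69.4, 107 and 52.1 on maltose, a difference of 3.73 ± 0.22 (limma adjusted p = 3.66e-09). In neither gene did the libraries overlap. The count includes gene 964651, which passed the level filter only through wheat straw. Without it and gene 982130, a choice made after seeing the data, 18 of 31 genes rose and none fell. When cellulose library A was left out, only the 31 genes with reads recovered on cellulose could be tested, a different set of 31. Of these, 17 rose and 1 fell, against 20% and 19.6% of all tested genes. When maltose library A was left out, 19 of 33 rose and 1 fell, against 27.6% and 15.6%.

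On pine against maltose, 19 genes rose and none fell, where 29.5% of all tested genes rose and 18% fell. Gene 1056495 again had the largest difference, 5.46 ± 0.24 (SE; limma adjusted p = 4.25e-09). Gene 1058751 followed with 8887 and 8776 normalized reads on pine and 522, 476 and 519 on maltose, a difference of 4.13 ± 0.36 (limma adjusted p = 9.95e-07). The median difference was 1.48, and 0.33 over all tested genes.

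On aspen against maltose, 17 genes rose and 1 fell, where 23.3% of all tested genes rose and 22.8% fell. Gene 1056495 rose by 4.26 ± 0.22 (SE; limma adjusted p = 6.08e-09). Gene 132820 had 1377, 1784 and 1738 normalized reads on aspen and 132, 141 and 118 on maltose, a difference of 3.63 ± 0.17 (limma adjusted p = 3.04e-10). The gene that fell was 962318, with 276, 313 and 260.2 normalized reads on aspen and 559.6, 884 and 589 on maltose, a difference of -1.23 ± 0.22 (limma adjusted p = 1.77e-04). The median difference was 1.06, and 0.09 over all tested genes. These 3 comparisons share the maltose libraries, and the choice of genes that are higher on wheat straw than on maltose used those libraries too.

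Aspen against pine shares no library with cellulose against maltose. On aspen, 11 of the 33 genes (33.3%) were lower than on pine and none was higher. Over all tested genes 16.6% were lower and 7.27% higher. Neither gene that passed the level filter only through wheat straw was among the 11. Gene 1070000 had 5144, 6094 and 5142 normalized reads on aspen and 18819 and 23057 on pine, a difference of -1.94 ± 0.23 (SE; limma adjusted p = 4.79e-05). Gene 940534 had 4574, 5744 and 6154 on aspen and 17462 and 22326 on pine, a difference of -1.86 ± 0.18 (limma adjusted p = 3.43e-05). The libraries of aspen and pine were far apart in both genes.

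The share of lower genes on aspen depended on how libraries were scaled and on which genes and libraries entered. With every library moved to a common median, 6 of the 33 genes (18.2%) were lower, against 10.9% of all tested genes. On the 24 genes with reads in every library, with no other change, 4 (16.7%) were lower, against 13.6% of all tested genes. After quantile normalization, which could be run only on genes with reads in every library, 2 of 24 (8.33%) were lower, against 8.67% of all. Without pine library B, 6 of the 33 (18.2%) were lower, against 13% of all tested genes, with the lone pine library assumed to vary like those of the other substrates. The median difference of the 33 genes was -0.52, and that of all tested genes -0.23.

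**Figure D5:**
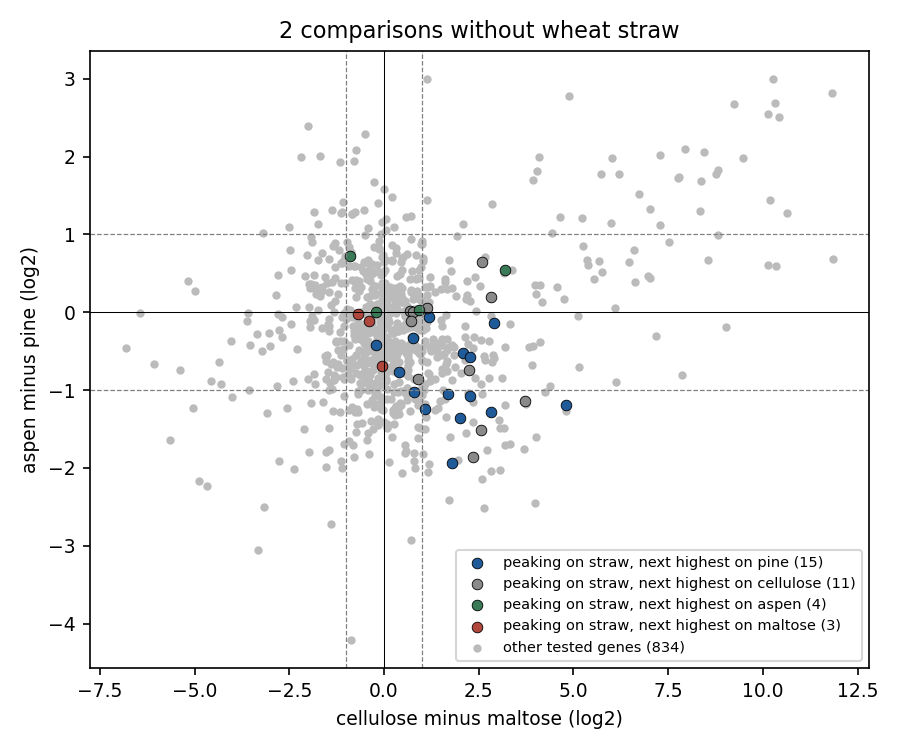
Cellulose minus maltose (x axis) and aspen minus pine (y axis), both log2, for the 867 tested genes, with the 33 genes coloured by their next highest substrate, which the same means define. Dashed lines mark a difference of 1. Of the 33 genes, 19 were called to the right and none to the left, and 11 below and none above.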

How the data were processed

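Illumina libraries of polyA RNA from 14 samples stand behind 1 deposited table. Its columns hold log2 normalized read counts, 1 per substrate, per the file headers. Per the submitters' processing notes, the authors used TopHat2, HTSeq and DESeq 1.5. How these were set, the genome build, the scaling, the selection of the 878 genes and the counting of near-identical genes were not given in the sources used here. The table was used through the substrate named in each header, and 0 other per-sample columns were found.

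The members and the tests were chosen with earlier results of these data known. Each deposited value was treated as a mean over libraries of log2(reads × factor + 1). Factors were found from the lowest values, and whole reads were then searched that gave the value within a relative tolerance of 5e-14 (1.8e-13 above level 10), up to level 13 (in pine throughout). The allowed distance of a library from the mean was 6 (log2) for means under 8, then 4 (to 10), 3 (to 11), 2 (to 12) and 1 beyond, and 6 throughout in pine. Only single solutions were used: 63 values had several, 7 none, and 367 were not searched. Of 300 values shifted on purpose, 0 up to level 11 and 12 of 300 between 11 and 13 gave a single false solution. Genes of high level with a wide spread are therefore missing or less certain.

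Differences are those of the deposited means. Their spread came from the recovered libraries, by a linear fit of substrate to the 14 libraries (limma 3.58.1, R 4.3.3, empirical Bayes with a mean-variance trend, two-sided, Benjamini-Hochberg adjustment in each comparison). A substrate without recovered reads was assumed to vary like the others. The tests took in each gene that reached level 4 in 2 or more libraries. Alternatives were other scalings, filters and added constants, and leaving out each library. The recovery (Python 3.11.15, numba 0.67.0) and the tests were tested on simulated data. As the gene numbers have no names, gene lists were not used. The genes given by number are those with the largest or smallest difference or level (up to 2 at each end), the largest margin in each class (2), and the largest called rises and falls in each test (2 each). Counting precision is not in the SEs beyond the spread seen between libraries.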

Additional observations from a re-analysis of the deposited data

How the results depend on the processing

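Other thresholds moved the number of genes from 33 to between 27 and 47, except a margin of at least 1, which left 7. Leaving out 1 library gave 31 to 38 genes. The median margin of the original 33 genes was then 0.63 to 0.69, against 0.66. For 9 of these 33 the wheat straw level could not change. Genes lower or higher in a test numbered 11 for aspen against pine, 19 for cellulose and for pine against maltose, and 18 for aspen against maltose. The first fell to 6 after a median shift, and the cause was not tested. On the 24 genes with reads in all libraries it was 4 (16.7%, against 13.6% of all genes lower), also 4 with 8 added inside the logarithm (against 12.5%), and 2 after quantile normalization (8.33%, against 8.67%). For cellulose against maltose these settings on 24 genes gave 12, 11 and 10, where the last held 9 rises and 1 fall. The rises were 50%, 45.8% and 37.5% of the 24, against 20%, 18.4% and 17.3% of all genes. For pine against maltose they gave 12 each (50%), against 24.6%, 22.2% and 18.7% of all genes. Fewer genes could be tested there, since the highest have no recovered reads, and no other cause was tested. For aspen against pine, leaving out 1 aspen library gave 8 to 9 of 32 genes. These were 25% to 28.1%, against 15% to 16% of all genes lower. For cellulose against maltose, leaving out 1 library gave 17 to 20 of 31 or 33 genes. Rises were 51.5% to 60.6% of these, against 18.7% to 28.3% of all genes. For aspen against maltose it gave 15 to 18. Without aspen libraries A and B, 50% and 43.8% of 32 genes rose, against 20.4% of all genes. Fits with 1 pine library left are not counted here. The other settings kept each count within 1.5 times. The 9 results of single genes kept direction and call in all 95 alternatives that could be run for them. No paired analysis was possible because the deposited columns are means, and the recovered libraries cannot be tied to the replicate numbers of the labels. Depth limits genes 964651 and 982130, with at most 54 reads in any library. No test was made of wheat straw against another substrate.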
